A study of Homo sapiens with 3 samples.

Results

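The genes described here carry cells through mitosis: 42 genes for mitotic cyclins and kinases, for the proteasome-directed switch that ends mitosis, for spindle and cytokinesis factors, and for the condensin subunits that compact chromosomes. They were chosen by name with earlier results of these data known, and kinesins and kinetochore genes were left out. Each was read from the probe sets whose platform annotation names that gene alone. All 42 were measured, among 18417 genes in all. Every one passed the filter on dim genes, which kept 12892 genes whose mean over the arrays lay at or above log2 5.12. BIRC5 had a pair of probe sets, which were averaged, and the other members had 1 each.

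The samples were LNCaP cells, an androgen-responsive human line from a prostate carcinoma metastasis, taken 72 hours after siRNA transfection. In 2 of them the siRNA targeted the SLC45A3-ELK4 chimeric transcript, with siSE1 on 1 array and siSE2 on the other, and 1 array holds cells given a negative control siRNA. All were grown with serum and transfected with the same lipid reagent. The siSE2 title was followed although that array has siSE1 in its transfection label. If the label is right, a single siRNA was used on both arrays. No label states that the cultures were separate, so p-values reflect array-to-array spread that may be technical.

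Mitosis is driven by CDK1 bound to cyclin B, helped by the polo-like and aurora kinases. It ends when the anaphase-promoting complex (APC/C), an ubiquitin ligase, marks cyclin B and securin for destruction. The mRNAs of many mitotic proteins are most abundant around G2 and mitosis, so they are widely read as markers of dividing cells. Their promoters often hold a cell cycle homology region (CHR), bound by complexes built on the MuvB core, and CCAAT boxes, bound by NF-Y.

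The whole-series values that bear on these genes are few. The parent gene SLC45A3 read 9.14 with siSE1 and 9.27 with siSE2, against 9.66 on the control array (log2), and ELK4 read 8.45 and 8.20, against 8.50. Their differences from the control array were -0.46 and -0.18, and neither passed the test over all genes described below. The annotation names each probe set for a parent gene and none for the chimera, so the level of the chimera was not measured here. The 5 prostate luminal markers measured (KLK2, KLK3, HOXB13, KRT8, KRT18) averaged 9.94 with siSE1 and 9.90 with siSE2, against 9.86 on the control array, and were not uniform. KRT8 read 10.73 and 10.61 with the siRNAs, against 10.24, and KRT18 10.17 and 10.02, against 9.68. KLK3 read 9.59 and 9.71, against 10.04, KLK2 9.69 and 9.40, against 9.82, and HOXB13 9.53 and 9.74, against 9.51. Of markers of other cell types, 1 of 2 basal, 4 of 6 stromal and 2 of 5 blood genes reached the filter level. The blood list averaged 5.05 with siSE1 and 4.88 with siSE2, against 4.64 on the control array, and the basal list 5.61 and 5.60, against 5.41. The stromal list averaged 5.06 on both siRNA arrays, against 4.997. The leukocyte gene PTPRC stayed between 3.17 and 3.22. LYZ, which encodes lysozyme, read 6.09 with siSE1 and 5.11 with siSE2, against 4.41 on the control array. The part of these markers in the results below was not tested.

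Mitotic genes read lower on both siRNA arrays than on the control array. The median difference of the 42 genes was -0.35 on the log2 scale, with -0.33 for siSE1 and -0.42 for siSE2, beside -0.02 over all genes tested (-0.02 for siSE1 and -0.01 for siSE2). Both comparisons use the same control array. In the deposited values 41 of the 42 genes lay below the control with both siRNAs, beside 41.7% of all genes, and CDK1 was the exception. With quantile normalization or cyclic loess the count was 37, beside 39.2% and 41.2% of all genes, and AURKB, CDCA8, PRC1 and UBE2C joined CDK1.

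Few of these differences passed the test over all genes. The kinase genes PBK and MELK fell and none rose (limma, Benjamini-Hochberg adjusted p under 0.05), so 2 of 42 were called lower, beside 0.714% of all genes. No member was higher at an unadjusted p under 0.05 either, beside 6.46% of all genes, while 20 of 42 were lower at that level, beside 11.3% of all genes. At least 1.5-fold lower with both siRNAs were PBK, MELK and MKI67, 3 of 42 beside 1.53% of all genes, and 0 members were as far above the control, beside 0.582%. With siSE1 alone 5 members were past that size, beside 4.27% of all genes, and with siSE2 alone 11 were, beside 2.82%. Each gene gives 1 residual degree of freedom, from how far siSE1 lay from siSE2, and 8.46 prior degrees of freedom come from the spread of all genes tested. Most of each standard error is therefore borrowed from other genes, and the lone control is assumed to have the same spread. With no filter on dim genes, or with a filter at the 50th percentile, neither PBK nor MELK passed. In RNA from whole cultures, fewer cells in G2 and mitosis and less of these mRNAs per cell cannot be told apart.

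**Figure D1:**
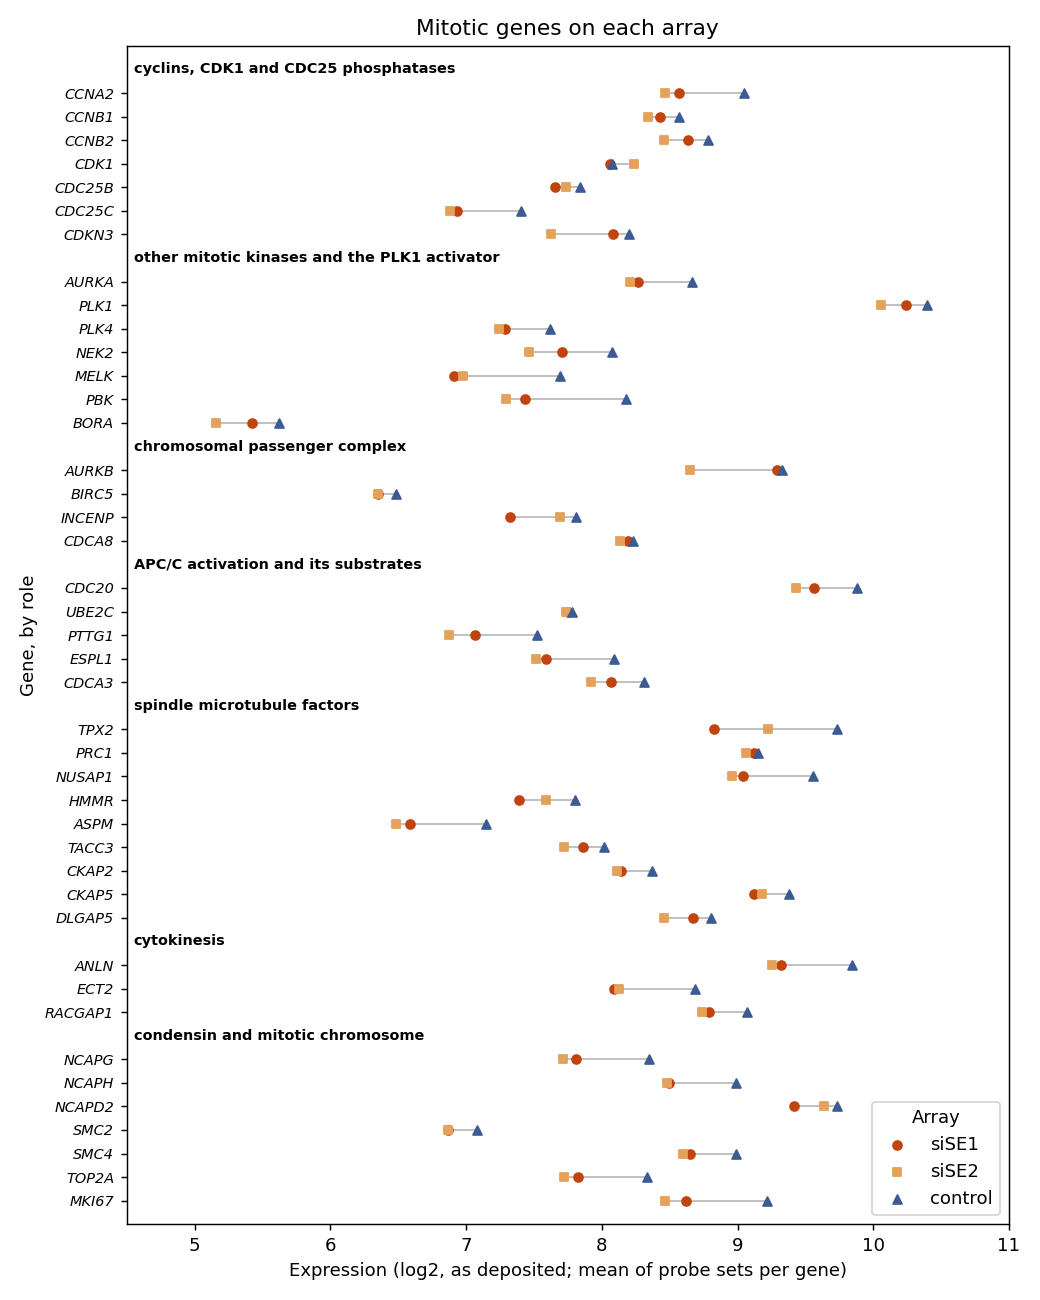
Expression of the 42 mitotic genes by role (log2, as deposited, x axis) on the siSE1, siSE2 and control arrays, 1 point per array, with a line spanning the lowest and highest array. The control array is the highest point of each gene except CDK1, and the spans are wide for PBK, MELK and TPX2 and narrow for PRC1, CDCA8 and UBE2C.

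The promoters of these genes were searched for the CHR and the CCAAT box. Promoters of mitotic genes often hold these motifs, so high shares follow from the choice of genes. Their part in the differences was not tested. RefSeq windows (GRCh38.p14, from 250 bases before to 50 after the first start listed for each gene, read on the gene's strand) were at hand for 36 of the 42 genes. AURKA, BIRC5, PBK, RACGAP1, TPX2 and UBE2C were not matched. The CHR was searched as TTTGAA or TTCGAA and the CCAAT box as CCAAT, on both strands, with overlaps between motifs allowed. A CHR was found in 25 of the 36 windows (69.4%), beside 10.8% of 10244 genes tested and 16.6% of 27305 windows in all. A CCAAT box was found in 26 (72.2%), beside 36.1% of the genes tested. Both motifs were present in 20 windows (55.6%), beside 4.48% of the genes tested. A match is a run of letters and not a measured binding site.

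The stretches below were chosen after the values were seen. They set windows with a CHR match side by side, from genes with large and small differences. Each ends at the base before the start, with CHR and CCAAT letters (either strand) in capitals. They differ in motif number and position, and ANLN has no CCAAT box in its window. MKI67, ANLN and ESPL1 stood well below the control array, PLK1 less so, and PRC1 and CDK1 close to it. MKI67 lies at chr10:128126424-128126533 on the minus strand, ANLN at chr7:36389802-36389861 on the plus strand and ESPL1 at chr12:53268229-53268298 on the plus strand. PLK1 lies at chr16:23678799-23678888 on the plus strand, PRC1 at chr15:90994536-90994605 on the minus strand and CDK1 at chr10:60778161-60778330 on the plus strand.
MKI67: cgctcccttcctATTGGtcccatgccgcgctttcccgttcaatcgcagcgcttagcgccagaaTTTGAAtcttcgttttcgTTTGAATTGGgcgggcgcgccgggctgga
ANLN: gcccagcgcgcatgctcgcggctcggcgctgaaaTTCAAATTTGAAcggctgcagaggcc
ESPL1: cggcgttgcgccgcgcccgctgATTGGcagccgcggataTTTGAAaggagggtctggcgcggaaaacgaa
PLK1: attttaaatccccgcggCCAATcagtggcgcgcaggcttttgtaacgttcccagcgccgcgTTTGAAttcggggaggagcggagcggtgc
PRC1: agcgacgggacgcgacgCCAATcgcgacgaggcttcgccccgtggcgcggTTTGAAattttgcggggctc
CDK1: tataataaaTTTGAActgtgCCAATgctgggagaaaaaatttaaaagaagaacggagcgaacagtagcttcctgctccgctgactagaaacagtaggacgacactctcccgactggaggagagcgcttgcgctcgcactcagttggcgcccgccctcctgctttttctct

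The CHR match nearest the start began at base -29 in MKI67 and in PLK1, counting -1 as the base before the start. It began at -20 in ANLN and in PRC1, and at -31 in ESPL1. In CDK1 the only match in the window began at -161. Windows around other starts of these genes were not searched, so whether that match is the CHR of the CDK1 promoter was not tested. The median difference from the control array was -0.33 over the 25 genes with a CHR match and -0.49 over the 11 without one. The search took exact letters near the first start listed, so genes with or without a match may hold a variant or a CHR elsewhere. Whether the differences depend on a CHR was not tested. MELK, which fell, had neither motif in its window.

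**Figure D2:**
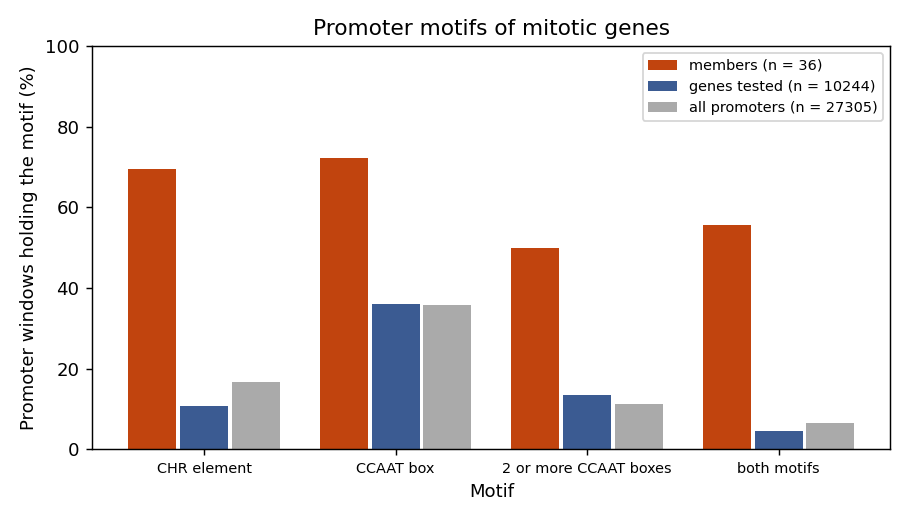
Percentage of promoter windows holding each motif (y axis, from 0) for the mitotic genes, all genes tested and all windows of the table. The CHR element was found in 69.4% of the mitotic gene windows and both motifs together in 55.6%, beside 10.8% and 4.48% of the genes tested.

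Among the cyclins, CDK1 and its regulators, 0 of 7 genes passed the test and 6 of 7 lay below the control with both siRNAs, beside 41.7% of all genes. Their median difference was -0.23, with -0.15 for siSE1 and -0.32 for siSE2. CCNA2, which encodes cyclin A2 of S phase and early mitosis, read 8.57 with siSE1 and 8.47 with siSE2, against 9.05 on the control array. Both siRNA arrays lay below the control, and the difference was -0.53 ± 0.14 (SE, limma; 95% interval -0.86 to -0.21, adjusted p = 0.106). CDC25C, a phosphatase that activates CDK1, read 6.93 and 6.88 with the siRNAs, against 7.41 on the control array, a difference of -0.50 ± 0.14 (adjusted p = 0.121). The cyclin B genes lay nearer to the control. CCNB1 read 8.43 and 8.34, against 8.57, and its interval ran from -0.51 to 0.13. CCNB2 read 8.64 and 8.46, against 8.78, and its interval ran from -0.57 to 0.10.

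CDK1, the catalytic partner of these cyclins, read 8.06 with siSE1 and 8.23 with siSE2, against 8.08 on the control array. The siRNA arrays lay on either side of the control, and the interval of the difference ran from -0.26 to 0.40. CDC25B, another CDK1-activating phosphatase, read 7.65 and 7.74, against 7.84 (interval -0.46 to 0.18). CDKN3, a phosphatase that acts on CDKs, read 8.08 with siSE1 and 7.63 with siSE2, against 8.20 on the control array, so that siSE2 alone lay far from the control.

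The other mitotic kinases held both genes that passed the test. PBK, a mitotic serine/threonine kinase also called TOPK, read 7.43 with siSE1 and 7.29 with siSE2, against 8.18 on the control array. Both siRNA arrays lay well below the control, and PBK fell 1.76-fold (-0.82 ± 0.15, SE; 95% interval -1.15 to -0.49; limma, adjusted p = 0.0398). MELK, a kinase gene expressed in dividing cells, read 6.91 and 6.98, against 7.69, and fell 1.68-fold (-0.75 ± 0.14; interval -1.07 to -0.43; limma, adjusted p = 0.0471). Across the alternatives that kept a test, the adjusted p (limma) ran from 0.0355 to 0.129 for PBK and from 0.0408 to 0.136 for MELK.

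The remaining 5 genes of this group lay below the control with both siRNAs, beside 41.7% of all genes, and did not pass. NEK2, a centrosome kinase, read 7.70 and 7.46, against 8.07 on the control array (-0.49 ± 0.16; limma, adjusted p = 0.154). AURKA, the spindle pole kinase, read 8.27 and 8.21, against 8.67 (-0.43 ± 0.14; limma, adjusted p = 0.167). PLK4, which starts centriole duplication, read 7.29 and 7.24, against 7.62, with an interval of -0.67 to -0.04. PLK1, the kinase of mitotic entry and spindle formation, was nearer to the control, at 10.24 and 10.06 against 10.39 (interval -0.58 to 0.09). BORA, the cofactor through which AURKA activates PLK1, was dim, at 5.42 and 5.16 against 5.62, and was left out under the filter at the 50th percentile.

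The chromosomal passenger complex, which corrects faulty attachments of chromosomes to the spindle, showed small or unequal differences, and 0 of its 4 genes passed. AURKB, its kinase, read 9.29 with siSE1 and 8.65 with siSE2, against 9.33 on the control array. INCENP, its scaffold, went the other way round, at 7.32 with siSE1 and 7.69 with siSE2, against 7.81. AURKB was thus far below the control with siSE2 alone, and INCENP mainly with siSE1. CDCA8, which encodes borealin, read 8.19 and 8.13, against 8.23 (interval -0.39 to 0.25). BIRC5, which encodes survivin, was read by a brighter probe set at 8.02 and 8.003, against 8.20, and by a dim one at 4.69 and 4.71, against 4.77. The interval of the averaged BIRC5 difference ran from -0.45 to 0.18.

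Of the 5 genes for APC/C activation and its substrates 0 passed, and the differences were uneven (median -0.39). PTTG1, which encodes securin, read 7.07 with siSE1 and 6.87 with siSE2, against 7.52 on the control array (-0.55 ± 0.15; limma, adjusted p = 0.113). ESPL1, which encodes separase, the protease that securin holds back, read 7.59 and 7.51, against 8.09 (-0.54 ± 0.14; limma, adjusted p = 0.0989). For both genes each siRNA array lay below the control, and the siRNA arrays were 0.19 apart for PTTG1 and 0.075 apart for ESPL1. CDC20, the APC/C activator of early mitosis, read 9.57 and 9.43, against 9.88 (interval -0.71 to -0.06). CDCA3, also called trigger of mitotic entry, read 8.07 and 7.92, against 8.31 (interval -0.65 to 0.01). UBE2C, the ubiquitin-conjugating enzyme that works with the APC/C, read 7.75 and 7.74, against 7.78. Its interval ran from -0.36 to 0.27, and with quantile normalization its difference turned to 0.021.

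Spindle microtubule factors ranged widely, from TPX2 at -0.70 to PRC1 at -0.06, and 0 of 9 passed. TPX2, which activates AURKA and seeds spindle microtubules, read 8.83 with siSE1 and 9.23 with siSE2, against 9.73 on the control array. Both siRNA arrays were below the control, siSE1 by more (-0.70 ± 0.18; interval -1.11 to -0.30; limma, adjusted p = 0.0937). ASPM, a spindle pole protein gene known from primary microcephaly, read 6.58 and 6.48, against 7.15 (-0.62 ± 0.14; limma, adjusted p = 0.0759). NUSAP1, which bundles spindle microtubules near chromosomes, read 9.04 and 8.96, against 9.56 (-0.56 ± 0.14; limma, adjusted p = 0.0937).

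The other 6 spindle genes had intervals that included 0. HMMR, a hyaluronan receptor gene whose product also sits on the spindle, read 7.39 with siSE1 and 7.59 with siSE2, against 7.80 on the control array. TACC3 and CKAP5, partners in stabilising spindle microtubules, differed from the control by -0.22 ± 0.15 and -0.23 ± 0.14. CKAP2 differed by -0.24 ± 0.14 and DLGAP5, which stabilises kinetochore fibres, by -0.24 ± 0.15. PRC1, the bundler of the anaphase midzone, read 9.12 and 9.06, against 9.15, with an interval of -0.38 to 0.26.

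The cytokinesis genes lay below the control with both siRNAs, beside 41.7% of all genes, and 0 of 3 passed. ECT2, the exchange factor that activates RhoA at the cell equator, read 8.09 with siSE1 and 8.13 with siSE2, against 8.69 on the control array (-0.58 ± 0.14; limma, adjusted p = 0.0865). ANLN, which encodes the ring scaffold anillin, read 9.32 and 9.25, against 9.84 (-0.55 ± 0.14; limma, adjusted p = 0.0938). RACGAP1, the ECT2 partner in the centralspindlin complex, read 8.79 and 8.74, against 9.07 (interval -0.62 to 0.01). The siRNA arrays were 0.043 apart for ECT2, 0.067 for ANLN and 0.055 for RACGAP1, beside a median of 0.12 over all genes tested.

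Condensin and mitotic chromosome genes also stood below the control with both siRNAs, beside 41.7% of all genes, and 0 of 7 passed (median -0.50). MKI67, which encodes the proliferation antigen Ki-67 that coats mitotic chromosomes, read 8.62 with siSE1 and 8.47 with siSE2, against 9.22 on the control array. Its siRNA arrays were both at least 1.5-fold below the control (-0.68 ± 0.15; interval -1.01 to -0.35; limma, adjusted p = 0.0654). TOP2A, the topoisomerase that untangles sister chromatids, read 7.82 and 7.72, against 8.33 (-0.56 ± 0.14; limma, adjusted p = 0.0937).

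Within condensin I the subunits were unequal. NCAPG and NCAPH, which belong to condensin I and not to condensin II, read 7.81 and 8.49 with siSE1 and 7.71 and 8.48 with siSE2, against 8.35 and 8.99 on the control array. Their differences were -0.59 ± 0.14 and -0.50 ± 0.14 (limma, adjusted p = 0.0869 and 0.116). NCAPD2, the remaining non-SMC subunit of condensin I, read 9.42 with siSE1 and 9.64 with siSE2, against 9.74, with an interval of -0.55 to 0.14. Of the ATPase subunits common to both condensins, SMC4 differed by -0.37 ± 0.14 and SMC2 by -0.21 ± 0.14. The intervals of these subunits overlap, and differences between genes were not tested.

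**Figure D3:**
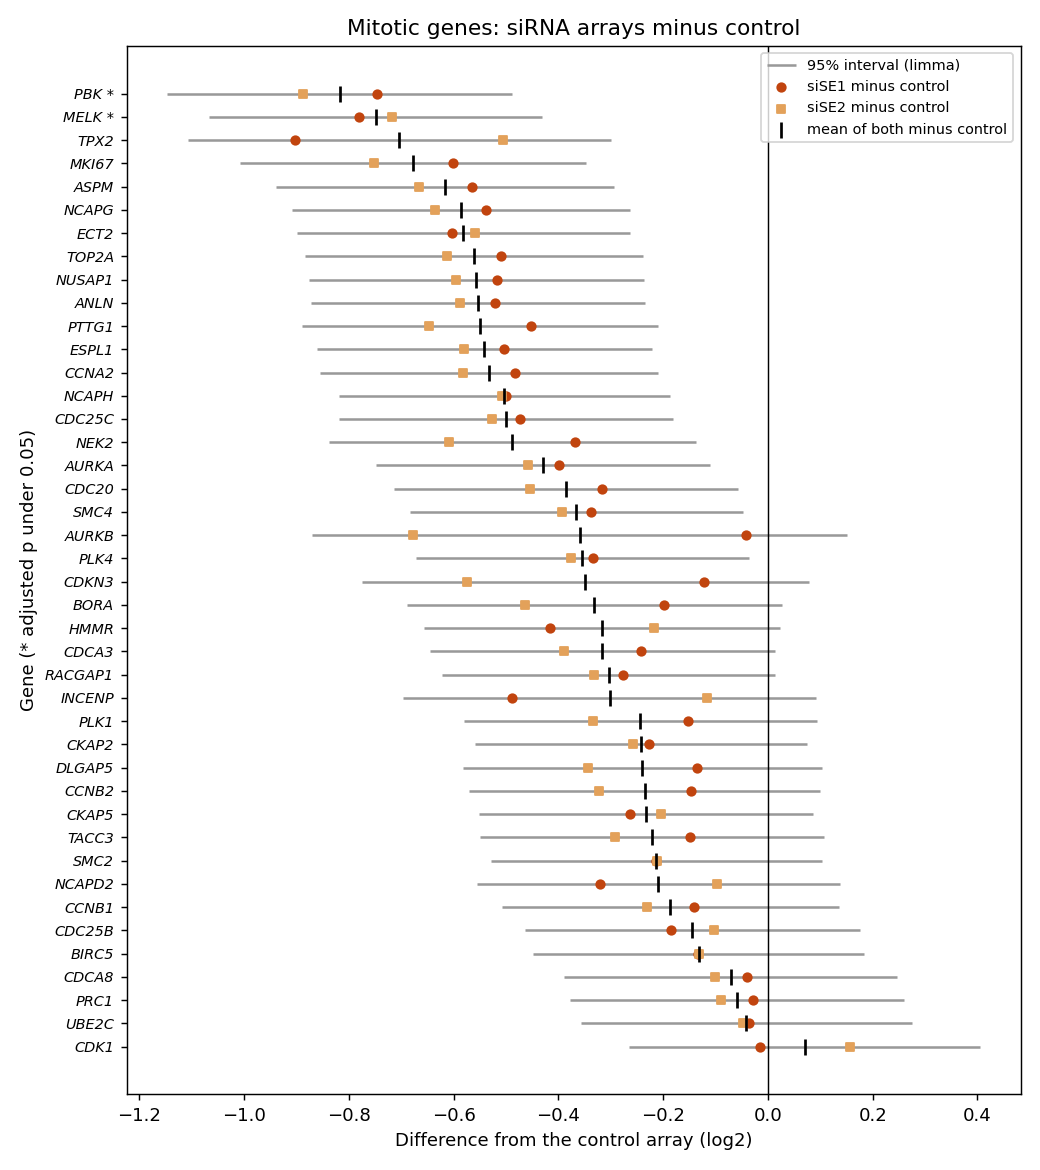
Difference of each siRNA array from the control array (log2, x axis) for the 42 genes, ordered by the mean of both, with the 95% interval of the limma fit as a grey line and an asterisk where the adjusted p was under 0.05. PBK and MELK carry the asterisk, and 20 intervals lie wholly below 0.

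The siRNAs were compared with each other on the same genes, with 1 array each and no test. The median absolute difference between siSE1 and siSE2 was 0.098 over the 42 genes and 0.12 over all genes tested. The siRNA arrays were at least 0.322 apart on the log2 scale for 4 of 42 genes (AURKB, CDKN3, TPX2 and INCENP), beside 10.4% of all genes. AURKB and CDKN3 were lower with siSE2, by 0.64 and 0.45, and TPX2 and INCENP were lower with siSE1, by 0.40 and 0.37. In 31 of 42 genes siSE2 gave the lower value, beside 48.9% of all genes.

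**Figure D4:**
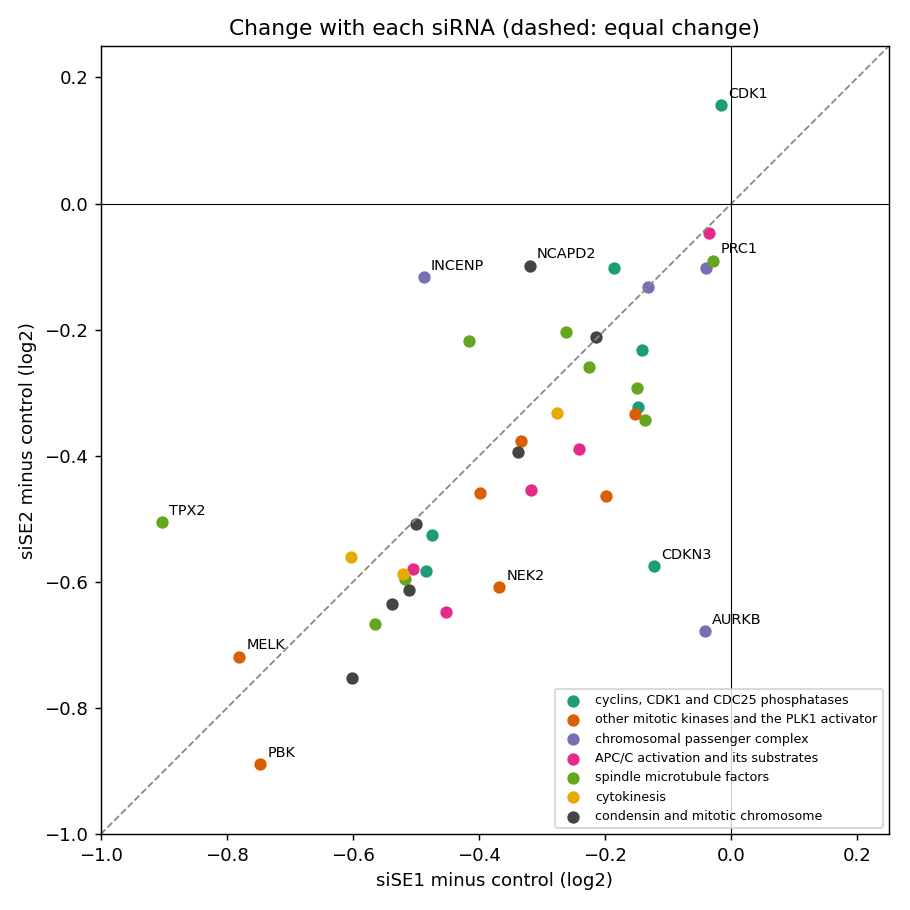
Difference from the control array with siSE1 (x axis) and with siSE2 (y axis), log2, 1 point per gene coloured by role; both axes use the same control array. Most points lie below the dashed line of equal change, while TPX2, INCENP and NCAPD2 lie above it and AURKB and CDKN3 far below it.

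The mitotic and other cell cycle lists most like the 42 genes are set beside them here without a test. With no filter on dim genes 0 genes were called lower (limma), so the calls among these further genes did not hold there either. Over all genes tested 0.714% were called lower and 0.248% higher, the shares to set beside the calls in each list here. The 12 mitotic kinesins had a median difference of -0.48, with 2 fallen and 0 risen. KIF14, which acts in cytokinesis, fell 1.86-fold and KIF15, a spindle motor, 1.87-fold (limma, adjusted p = 0.0359 and 0.0372). The 38 tested kinetochore and spindle checkpoint genes had a median of -0.41, with 1 fallen and 0 risen. KNL1, the kinetochore scaffold for checkpoint proteins, read 7.43 and 7.29 with the siRNAs, against 8.31 on the control array, and fell 1.93-fold (limma, adjusted p = 0.0279). CENPK, part of the constitutive centromere network, differed by -1.14 ± 0.24 and missed the threshold.

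Further spindle and cytokinesis genes had a median of -0.49 over 14 genes, with 2 fallen and 0 risen. CEP55, which recruits the abscission machinery, read 7.55 with siSE1 and 7.52 with siSE2, against 8.54 on the control array, and fell 2.01-fold (-1.004 ± 0.14; limma, adjusted p = 0.0223). DEPDC1B fell 2.04-fold (limma, adjusted p = 0.0428). The 16 condensin II and cohesin genes had a median of -0.37, and the condensin II subunit gene NCAPG2 alone fell, 1.68-fold (limma, adjusted p = 0.0472). SGO1 and SGO2, the shugoshin guardians of centromeric cohesion, differed by -0.72 ± 0.15 and -0.61 ± 0.14.

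The 17 APC/C subunits and regulators had a median of -0.29, with -0.27 for siSE1 and -0.19 for siSE2. Among them the subunit gene CDC26 alone fell, 2.12-fold, and it read 6.50 with siSE1 and 7.02 with siSE2, against 7.85 on the control array (limma, adjusted p = 0.0456). FBXO5, an APC/C inhibitor also called EMI1, differed by -0.72 ± 0.15. The 11 mitotic entry regulators had a median of -0.28, with 1 fallen and 0 risen. PKMYT1, the kinase that restrains CDK1, fell 1.999-fold, at 6.40 and 6.53 with the siRNAs against 7.46 on the control array (limma, adjusted p = 0.0226). ARPP19, an inhibitor of the phosphatase that opposes CDK1, went the other way, by 0.69 ± 0.15, without passing.

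No gene of the 20 tested for the centrosome, augmin and gamma-tubulin (median -0.30), of the 6 tested G1 cyclins and kinases (median -0.19) or of the 7 FOXM1, MYBL2 and MuvB genes (median -0.21) passed the test (limma). At an unadjusted p under 0.05, 8, 3 and 2 genes of these lists were lower, beside 11.3% of all genes, and 0, 1 and 0 were higher, beside 6.46%. At the same level 11 of the 12 kinesins, 24 of the 38 kinetochore and checkpoint genes and 12 of the 14 further spindle and cytokinesis genes were lower. So were 9 of the 16 condensin II and cohesin genes, 8 of the 17 APC/C genes and 4 of the 11 entry regulators, and 1 entry regulator was higher. FOXM1, which drives transcription of many mitotic genes, read 9.25 with siSE1 and 9.04 with siSE2, against 9.88 on the control array (-0.73 ± 0.15; limma, adjusted p = 0.0608). MYBL2, another activator of these promoters, differed by -0.30 ± 0.14. CCNE1, which encodes cyclin E1 of the G1/S transition, differed by 0.64 ± 0.15 and CDK2 by -0.56 ± 0.14, both without passing.

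**Figure D5:**
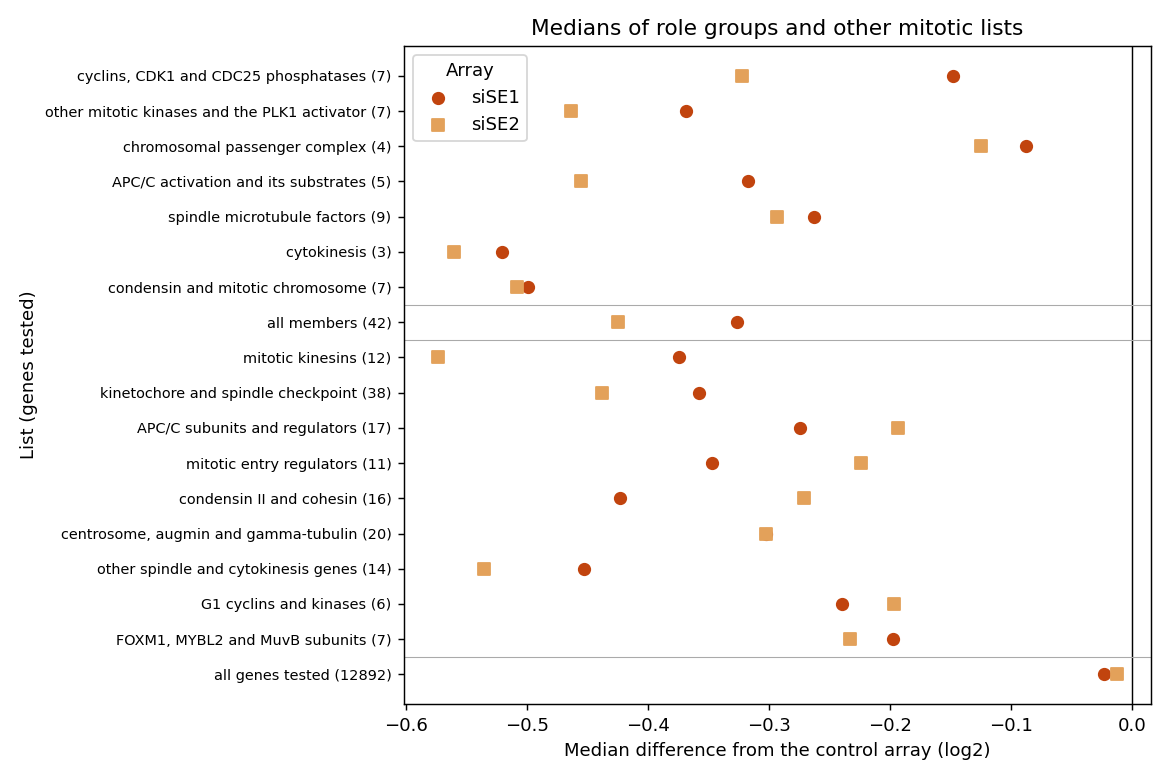
Median difference from the control array (log2, x axis) with siSE1 and with siSE2 for the role groups of the 42 genes, for all 42, for the other mitotic and cell cycle lists and for all 12892 genes tested. Every list median lies below 0 on both arrays, between -0.57 and -0.09, while the medians over all genes tested are -0.02 and -0.01.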

How the data were processed

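The authors deposited log2 values for 33297 probe sets on 3 arrays, and per the submitters' processing notes the tool was Affymetrix Expression Console; version, algorithm and build: not given in the sources used here. The log2 scale was inferred from the range, 1.43 to 13.9, and the array medians, 5.84 (siSE1), 5.84 (siSE2) and 5.80 (control). In the platform annotation 19460 probe sets had a single gene, whose symbols were updated by gene identifier (19429 matched). Probe sets of a gene were averaged, genes below the 30th percentile of mean level were left out, and 12892 genes were fitted with limma 3.58.1 (lmFit, eBayes; R 4.3.3), siRNA arrays (n = 2) against control (n = 1), with Benjamini-Hochberg adjustment and a threshold of 0.05. The fit was tested on simulated data. Errors are moderated standard errors. Precision is limited by the number of arrays.

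The members and lists were chosen with earlier results of these data known. All members are reported, and from each other list up to 4 genes with the largest smaller one of their differences, plus any that passed, were eligible to be named. Alternatives covered normalization, the filter, the probe set rule, the variance prior, fold thresholds and leaving out each siRNA array.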

Additional observations from a re-analysis of the deposited data

How the results depend on the processing

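PBK and MELK passed with quantile normalization, cyclic loess, the highest probe set per gene and an intensity-trend prior. With equal array medians 1 member passed, PBK, and MELK had an adjusted p (limma) of 0.0522. With no filter 0 members passed (limma; 20 lower at an unadjusted p under 0.05, over 18417 genes tested), and 0 passed under a 50th-percentile filter (20 lower at an unadjusted p under 0.05). At least 1.5-fold lower with both siRNAs were 5 members with equal array medians, beside 1.98% of all genes, against 3 as deposited, beside 1.53%. With quantile normalization and with cyclic loess 2 members were, beside 1.41% and 1.54% of all genes. In the values as deposited, 0 members were 2-fold lower, beside 0.101%. At a smaller threshold of 0.322 on the log2 scale 19 were, beside 8.02%. With 1 siRNA array at a time, the 1.5-fold count was 5 for siSE1 and 11 for siSE2, beside 4.27% and 2.82% of all genes. The members' median was -0.33 for siSE1 and -0.42 for siSE2. UBE2C turned to 0.021 with quantile normalization, and CDK1 was -0.016 without the siSE2 array and 0.16 without the siSE1 array, against 0.070 with both. The count of members lower with both siRNAs at any size, and its alternatives, were chosen after seeing the data. It was 41 as deposited and ran from 37 to 41 over the normalization, filter, probe set and prior alternatives. The share of all genes lower with both siRNAs was 41.7% as deposited. It ran from 36.3% with no filter to 48.5% with equal array medians. Over all genes, the test called 63 higher with quantile normalization, 52 with the trend prior and 21 with equal array medians, against 32. With no filter it called 1 higher and 0 lower (limma; 1503 lower at an unadjusted p under 0.05), and under the 50th-percentile filter 15 higher and 20 lower. No paired analysis was possible because there is 1 control array and the siRNA numbers name siRNAs, not pairs. Signal over background could not be read from the deposited values.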
